A study of Mus musculus with 16 samples.

Results

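The genes described here are 10 genes known to respond to glucocorticoids and to fasting, given as a list of names: Pdk4, Fkbp5, Sgk1, Ddit4, Tsc22d3, Zbtb16, Klf9, Cebpd, Mt1 and Mt2. All 10 were found by Ensembl ID among the 54752 IDs of the count table, and all 10 passed the filter on low counts that left 19736 genes for testing. The lowest count of any of them in any library was 688, for Cebpd. RNA was sequenced from iWAT (inguinal white adipose tissue), a fat pad under the skin of the groin, in 16 libraries of mice labelled as female and aged 90 days on a C57BL/6 background. There were 4 libraries of each of 4 genotypes. WT mice had no mutation. Lepob/+ mice carried a normal copy of the leptin gene Lep and a copy of its inactive ob allele. SOD1G93A mice carried a multicopy transgene of human SOD1 with a mutation found in amyotrophic lateral sclerosis, under the promoter of the human gene, and SOD1G93A-Lepob/+ mice carried both mutations. The 4 genotypes came from crosses of Lepob/+ females with SOD1G93A males, food was freely available to all of them, and no treatment was given. The study's methods describe a fast of some hours before the terminal blood sampling for plasma leptin at the same age. Whether the mice whose fat was sequenced were among those fasted, and the hour of dissection, are not given in the sources used here.

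Glucocorticoids are steroid hormones of the adrenal cortex that bind the glucocorticoid receptor, Nr3c1, which then enters the nucleus and switches on target genes, in part through DNA elements made of paired AGAACA half-sites. Their release follows the daily clock and climbs with stress and fasting, and in fat they act on lipid storage and release, on the response to insulin and on inflammation. FOXO transcription factors, held back by insulin in the fed state, act on several of the same genes.

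Some members carry known recognition letters close to their start sites. Promoter windows of 250 bases before to 50 bases after a start site (RefSeq, GRCm38.p6) were found for 8 of the 10 members, 15 windows in all, of which 6 belong to Sgk1 and 3 to Tsc22d3. Zbtb16 and Cebpd had no entry. The full glucocorticoid response element with identical arms, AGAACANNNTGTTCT, was searched on both strands and stood in 1 of the 15 windows, that of an Sgk1 start site, where it began 189 bases before the start. It stood in 3 of all 32851 promoter windows (0.00913%). The half-site AGAACA alone, of which the arms of the full element are examples, was held by 19.0% of all windows. The Sgk1 window is shown because it is the one with the full element, given in capitals (chr10:21993640-21993939, plus strand).

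Sgk1 promoter: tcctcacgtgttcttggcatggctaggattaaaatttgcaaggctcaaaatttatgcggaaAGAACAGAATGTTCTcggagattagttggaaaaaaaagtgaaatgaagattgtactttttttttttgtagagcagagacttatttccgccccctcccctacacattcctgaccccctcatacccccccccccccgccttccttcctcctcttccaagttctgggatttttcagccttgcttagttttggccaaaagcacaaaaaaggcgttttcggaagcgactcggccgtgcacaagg

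The Klf9 window is shown for a FOXO motif, GTAAACA, given in capitals, which began 100 bases before the start site (chr19:23140976-23141275, plus strand). Of all windows, 3.65% held this motif on either strand.

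Klf9 promoter: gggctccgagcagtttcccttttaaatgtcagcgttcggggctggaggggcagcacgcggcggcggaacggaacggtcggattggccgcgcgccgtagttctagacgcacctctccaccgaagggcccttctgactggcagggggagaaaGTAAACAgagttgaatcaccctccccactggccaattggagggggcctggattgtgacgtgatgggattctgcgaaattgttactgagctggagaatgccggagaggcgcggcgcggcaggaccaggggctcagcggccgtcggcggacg

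The windows of the metallothionein genes Mt1 (chr8:94178839-94179138, plus strand) and Mt2 (chr8:94172368-94172667, plus strand) are shown for cores of the metal response element, the site of the zinc sensor Mtf1, in capitals. The letters searched on both strands were TGCACNC and TGCGCNC. Mt1 held 3 cores and Mt2 held 4, where 25.7% of all windows held any and 1.97% held 3 or more. The E-box CACGTG, the site of clock and other basic helix-loop-helix factors, stood in the windows of Fkbp5 and of Sgk1 and in 7.15% of all windows. These matches are a description of letters, and no binding was measured.

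Mt1 promoter: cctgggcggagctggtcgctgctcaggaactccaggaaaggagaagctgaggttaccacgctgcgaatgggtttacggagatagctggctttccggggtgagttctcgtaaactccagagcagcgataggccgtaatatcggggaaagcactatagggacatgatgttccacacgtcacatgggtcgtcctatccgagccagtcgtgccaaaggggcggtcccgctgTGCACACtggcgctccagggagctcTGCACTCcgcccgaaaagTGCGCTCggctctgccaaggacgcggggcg
Mt2 promoter: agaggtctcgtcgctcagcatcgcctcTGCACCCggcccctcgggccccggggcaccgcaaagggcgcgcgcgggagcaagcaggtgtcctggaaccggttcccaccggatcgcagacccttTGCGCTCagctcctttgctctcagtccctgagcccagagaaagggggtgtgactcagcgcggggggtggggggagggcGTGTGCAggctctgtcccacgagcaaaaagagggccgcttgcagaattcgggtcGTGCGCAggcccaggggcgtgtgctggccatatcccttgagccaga

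Mt1 and Mt2 are close relatives, and their coding bases are shown because uniquely mapped reads had to tell them apart. Each has 183 coding bases before the stop codon, joined from 3 exons (GRCm38, plus strand, chr8:94179311-94180190 for Mt1 and chr8:94172848-94173424 for Mt2). Capitals mark the 38 bases at which they differ. The sequences were 79.2% identical, and their longest shared run was 20 bases.

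Mt1 coding: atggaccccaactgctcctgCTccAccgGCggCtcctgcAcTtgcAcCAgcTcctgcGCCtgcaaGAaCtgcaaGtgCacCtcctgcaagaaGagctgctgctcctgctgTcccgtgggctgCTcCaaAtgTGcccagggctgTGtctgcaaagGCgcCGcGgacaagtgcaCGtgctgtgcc
Mt2 coding: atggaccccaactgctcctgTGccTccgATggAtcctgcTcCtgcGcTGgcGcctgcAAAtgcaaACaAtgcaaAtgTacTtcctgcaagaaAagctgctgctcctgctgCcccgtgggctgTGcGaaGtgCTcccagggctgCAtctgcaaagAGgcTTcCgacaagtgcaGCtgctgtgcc

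Libraries held 36.8 to 61.9 M counts. Some libraries stood apart in ways that touch the members. The library Lepob/+ 4 carried skeletal muscle transcripts. The summed level of 14 muscle genes was 236800 CPM (counts per 1 M counts of a library, after scaling by TMM, a trimmed mean of ratios between libraries) there, 6103 in WT 3 and 53.1 to 411 in the other libraries, and in Lepob/+ 1 to 3 Ckm and Pvalb, which mark muscle fibres, had 0 counts. The library labelled SOD1G93A-Lepob/+ 3 had 0 counts of Xist and 1756 counts of Y-linked genes, where the others had at least 11895 and 0, against its label as female. The summed level of 10 lymph node genes was 655.9 CPM or more in WT 1 and 2, Lepob/+ 3 and SOD1G93A 1, 2 and 4, and 54.8 or less in the remaining libraries, all 4 of SOD1G93A-Lepob/+ among them. Adipoq, made by mature adipocytes, was at 1209 to 3262 CPM in all 16. In RNA from whole tissue, fewer cells of a type and less RNA per cell cannot be told apart.

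Per kilobase of exon, the median level over the 16 libraries was highest for the small metallothionein genes, at 46.8 CPM per kb for Mt2 and 41.6 for Mt1. Ddit4 followed at 36.1, Tsc22d3 at 23.0 and Pdk4 at 20.4. Klf9 was at 14.9, Sgk1 at 13.6, Zbtb16 at 7.44, Cebpd at 6.70 and Fkbp5 at 3.52. The length used joins the exons of all annotated transcripts of a gene. For Mt1 that was 1246 bases, its whole gene span, and for Mt2 588 bases. The order of Mt1 and Mt2 rests on these lengths, since their median levels before division were 51.9 and 27.5 CPM. The member that varied most between libraries was Pdk4, whose highest library was 34.4 times its lowest, and the member that varied least was Mt1, at 2.90 times, or Klf9, at 2.40 times, when Lepob/+ 4 was left out. Without Lepob/+ 4 the same ratio was 6.77 for Pdk4, 4.02 for Sgk1 and 3.83 for Tsc22d3, and it was 6.88 for Zbtb16, whose highest library was another.

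**Figure D1:**
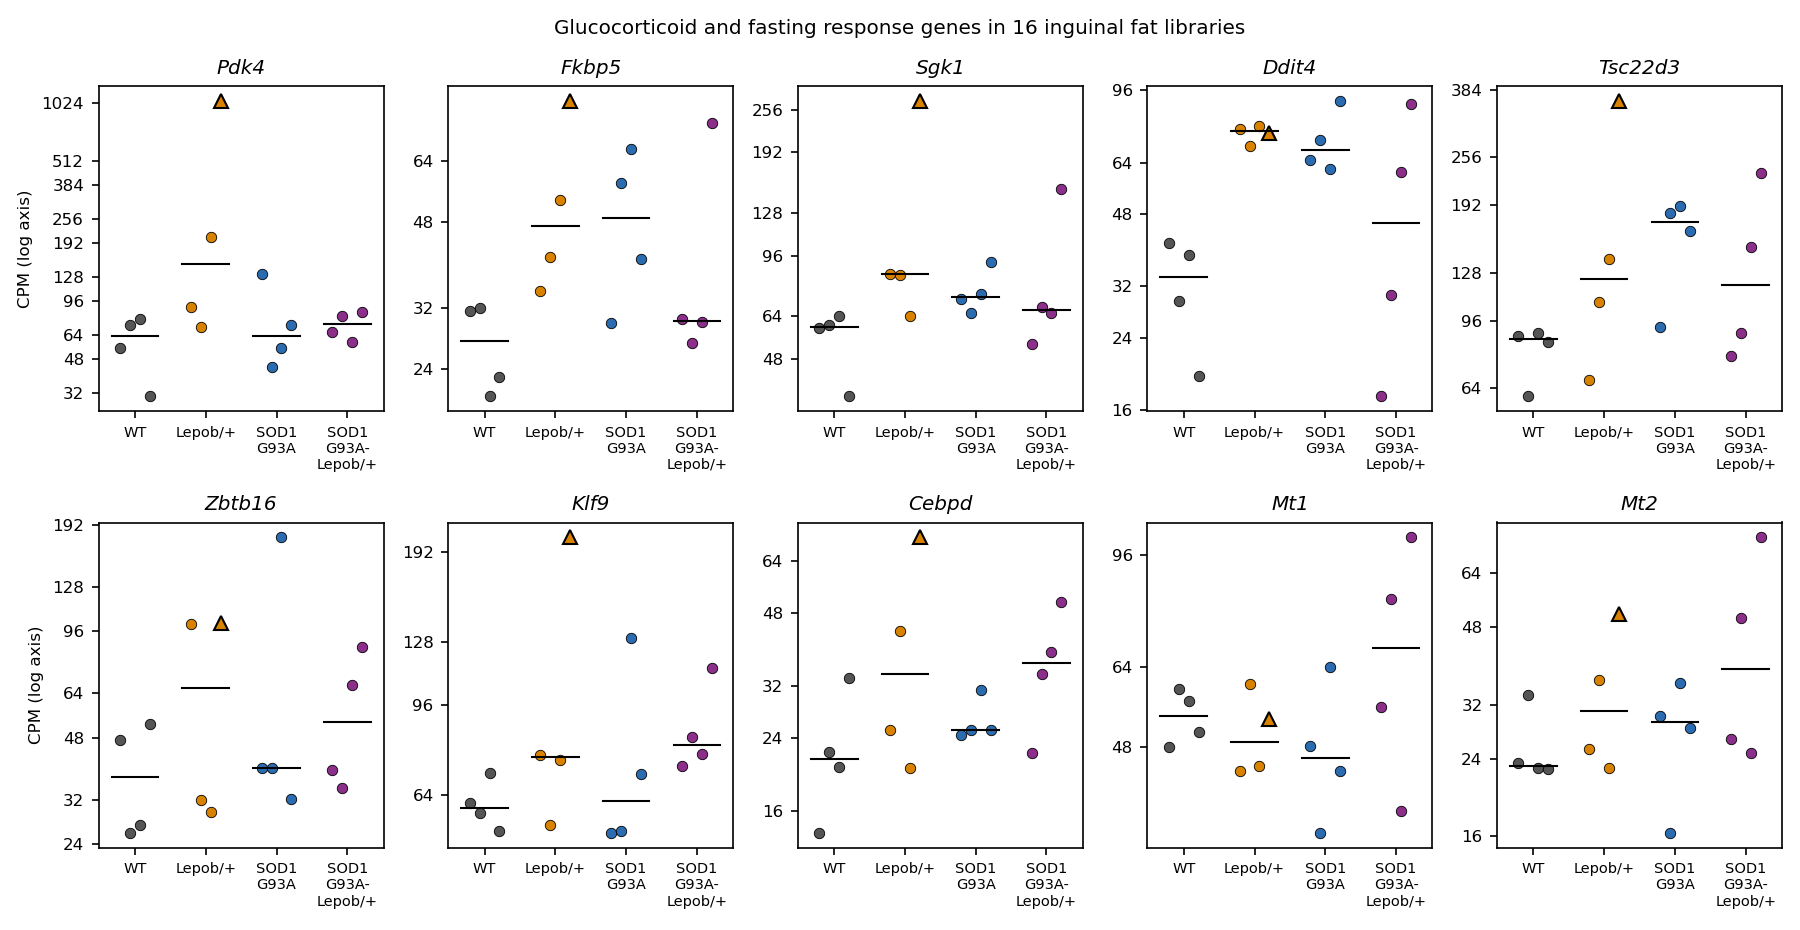
Level of each of the 10 genes in CPM (log axis) in each of the 16 libraries, by genotype. Points are libraries, in the order 1 to 4 from left to right within a genotype, bars are the medians of 4, and the triangle is Lepob/+ 4, which is the highest library for 6 of the 10 genes but lies among the other Lepob/+ libraries for Ddit4 (70.2 to 78.4 CPM).

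A single library held the highest level for most members. Lepob/+ 4 was the highest of 16 for 6 of the 10 (Pdk4, Fkbp5, Sgk1, Tsc22d3, Klf9 and Cebpd) and among the 3 highest for 8. Of all genes tested, 21.5% were highest there and 29.4% among the 3 highest. SOD1G93A-Lepob/+ 4 was the highest for Mt1 and Mt2, 2 of 10 against 5.18% of all genes, and among the 3 highest for 8 of 10 members, against 16.4%. SOD1G93A 3 was the highest for Zbtb16 and SOD1G93A 4 for Ddit4. No WT library was among the 3 highest for any member, and WT 4 was among the 3 lowest for 6. Summed over the 10 members, WT libraries lay at 409 to 488 CPM, Lepob/+ at 601 to 2328, SOD1G93A at 587 to 888 and SOD1G93A-Lepob/+ at 461 to 1063. The summed level in WT thus overlapped that of SOD1G93A-Lepob/+ and lay below that of the 2 single mutants.

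**Figure D2:**
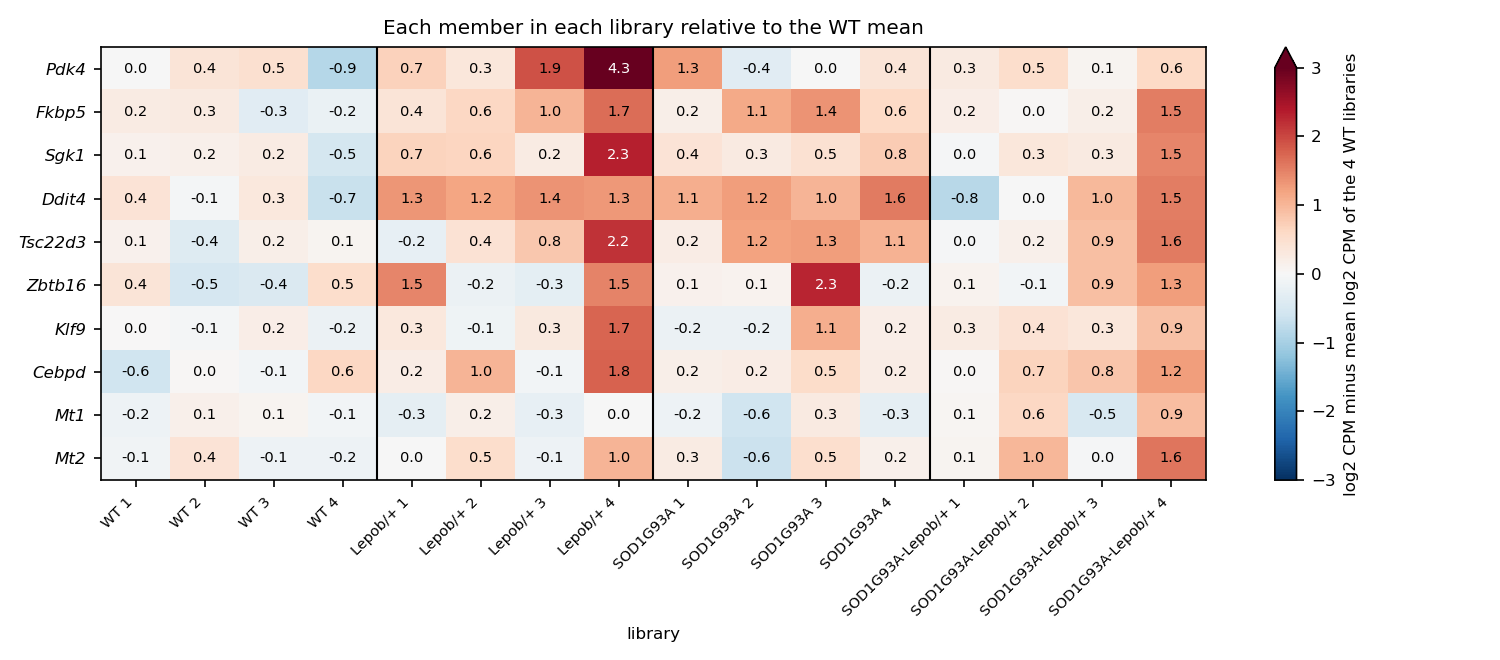
Log2 CPM of each member in each library minus its mean log2 CPM in the 4 WT libraries (colour and numbers, color scale ending at 3). The Lepob/+ 4 column is the darkest for most genes, with 1052 CPM for Pdk4, while the Ddit4 row is shaded in all 8 libraries of Lepob/+ and SOD1G93A.

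The first question was whether losing a copy of Lep altered these genes in mice without the transgene. Levels were higher in Lepob/+ than in WT for 9 of the 10 members (55.6% of all genes), with a median log2 fold change of 0.92 against 0.03 over all genes tested. By the quasi-likelihood F test of edgeR, 0 of 10 members and 0 of 19736 genes (0.0%) had a Benjamini-Hochberg adjusted p under 0.05. At an unadjusted p under 0.05, 6 members (Pdk4, Fkbp5, Sgk1, Ddit4, Tsc22d3 and Cebpd) were higher and 0 lower, against 3.56% of all genes higher. DESeq2 run on these 8 libraries alone called 1 member, Ddit4, and 0.0174% of the genes with a p-value. DESeq2 on all libraries called 0 members (0.00325% of genes), and 0 members and 0.0% of genes were called by voom of limma, run with quality weights. Without Lepob/+ 4 the median over members was 0.43, 9 members were still higher (50.4% of all genes), and 2 members (Pdk4 and Ddit4) had an unadjusted p under 0.05, against 1.7% of all genes. Without WT 3, the count was 3, with 824 of all genes under that threshold in either direction.

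Ddit4, which encodes an inhibitor of the growth kinase mTORC1 and is induced by glucocorticoids, low oxygen and lack of energy, was the member whose genotypes separated most evenly. Its gene lies at chr10:59949669-59951834 (GRCm38, minus strand). In WT 1 to 4 its levels were 40.7, 29.5, 38.0 and 19.4 CPM, and in Lepob/+ 1 to 4 they were 77.2, 70.2, 78.4 and 75.7 CPM. Each Lepob/+ library was above each WT library, and Lepob/+ 4 lay between the others. The mean was 31.9 ± 9.61 CPM in WT and 75.4 ± 3.64 CPM in Lepob/+ (SD, n = 4 each), a log2 fold change of 1.24 ± 0.38 (SE, edgeR, unadjusted p = 0.00586, adjusted p = 1.0). With DESeq2 on these libraries the adjusted p was 0.0255. Over 20 alternatives the log2 fold change stayed between 1.04 and 1.37, and without Lepob/+ 4 it was 1.22 ± 0.42 (edgeR, unadjusted p = 0.0123). Fkbp5 was the other member whose groups did not overlap, so 2 of 10 members lay wholly above WT, against 0.532% of all genes.

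Pdk4 encodes pyruvate dehydrogenase kinase 4, which shuts off the entry of glucose carbon into mitochondria when fatty acids are burned, and its messenger is a marker of fasting. It lies at chr6:5483351-5496309 (minus strand). Its levels were 54.6, 71.8, 77.5 and 30.6 CPM in WT 1 to 4, and 89.6, 70.1, 207 and 1052 CPM in Lepob/+ 1 to 4. Lepob/+ 4 stood far above all others, Lepob/+ 3 came next, and Lepob/+ 2 lay within the WT range, so the groups overlapped. The log2 fold change was 2.60 ± 0.72 (SE, edgeR, unadjusted p = 0.00282, adjusted p = 1.0), and 1.04 ± 0.44 without Lepob/+ 4 (unadjusted p = 0.0319). Lepob/+ 4 was 8.60 times the mean of the other 3 Lepob/+ libraries for Pdk4, the largest such ratio of the 10 members. Pdk4 is abundant in skeletal muscle. With the muscle list as a covariate its log2 fold change was 1.68 (edgeR, unadjusted p = 0.0079). Across libraries Pdk4 and the summed muscle list had a Spearman rho of -0.07 (n = 16), and -0.30 without Lepob/+ 4 (n = 15). Neither rho can show what muscle RNA adds in Lepob/+ 4, since ranks give a single library little weight and the latter leaves it out. The part of muscle RNA in the Pdk4 level of Lepob/+ 4 was not tested further.

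**Figure D3:**
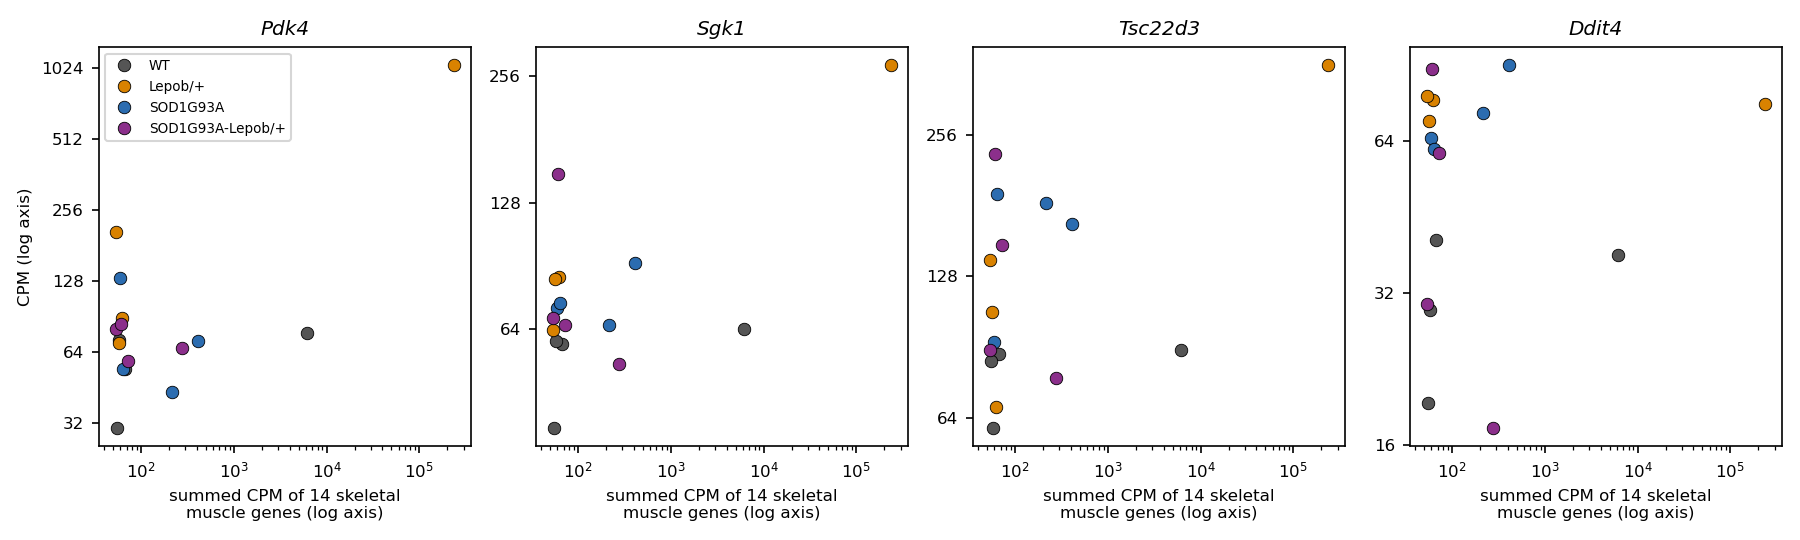
CPM of Pdk4, Sgk1, Tsc22d3 and Ddit4 against the summed CPM of 14 skeletal muscle genes, both on log axes, 1 point per library and colored by genotype. Lepob/+ 4, at 236800 CPM of muscle transcripts, is the highest point for Pdk4 (1052 CPM), Sgk1 (272 CPM) and Tsc22d3 (359.7 CPM), while for Ddit4 it lies beside the other Lepob/+ libraries.

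Fkbp5 encodes FKBP51, a cochaperone that lowers the affinity of the glucocorticoid receptor for its hormone and is itself induced by the receptor (chr17:28399094-28517527, minus strand). Its levels were 31.4, 32.0, 21.1 and 23.1 CPM in WT and 34.7, 40.6, 53.4 and 85.1 CPM in Lepob/+, for libraries 1 to 4 of each. The lowest Lepob/+ library was just above the highest WT library, and Lepob/+ 4 was the highest. The log2 fold change was 0.99 ± 0.38 (SE, edgeR, unadjusted p = 0.0194, adjusted p = 1.0), and without Lepob/+ 4 it was 0.66 (unadjusted p = 0.0981).

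Sgk1 encodes a kinase of salt and glucose transport that glucocorticoids and mineralocorticoids induce (chr10:21882184-21999903, plus strand). In WT 1 to 4 it was at 59.0, 60.1, 64.1 and 37.3 CPM, and in Lepob/+ 1 to 4 at 85.1, 84.4, 63.8 and 272 CPM. Only Lepob/+ 3 overlapped WT, and Lepob/+ 4 was the highest library by a wide margin. The log2 fold change was 1.20 ± 0.43 (SE, edgeR, unadjusted p = 0.0142, adjusted p = 1.0), and without Lepob/+ 4 it was 0.48 (unadjusted p = 0.147).

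Tsc22d3 encodes GILZ, a leucine zipper protein through which glucocorticoids restrain inflammatory signalling (chrX:140539528-140600659, minus strand). It was at 87.2, 60.9, 89.2 and 84.6 CPM in WT and at 67.3, 107, 139 and 359.7 CPM in Lepob/+. Lepob/+ 1 lay within the WT range and the other 3 above it. The log2 fold change was 1.06 ± 0.46 (SE, edgeR, unadjusted p = 0.0371, adjusted p = 1.0) with Lepob/+ 4, and 0.36 without it (unadjusted p = 0.345).

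Among the transcription factors, Cebpd, an early factor of adipocyte differentiation, was at 14.2, 22.2, 20.5 and 33.4 CPM in WT and at 25.0, 43.4, 20.3 and 73.0 CPM in Lepob/+. The groups overlapped and Lepob/+ 4 was again the highest. Its log2 fold change was 0.84 ± 0.37 (SE, edgeR, unadjusted p = 0.0394, adjusted p = 1.0), and 0.37 without Lepob/+ 4 (unadjusted p = 0.261). Cebpd shares 562 exon bases with Spidr on the other strand, and since the strand setting of the counting is not given, reads of the pair cannot be told apart there. Klf9, a Krüppel-like factor linked to the clock and to stress, was at 54.5 to 70.8 CPM in WT and at 76.8, 55.9, 75.1 and 205 CPM in Lepob/+ 1 to 4, with Lepob/+ 4 alone far above WT. Zbtb16 (PLZF), a zinc finger repressor, was at 25.8 to 52.4 CPM in WT and at 101, 32.0, 29.6 and 101 CPM in Lepob/+ 1 to 4, so that 2 Lepob/+ libraries were above WT and the others within its range. Klf9 and Zbtb16 had unadjusted p-values from edgeR of 0.065 and 0.2.

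The metallothioneins, small proteins that bind zinc and copper and are induced by metals and glucocorticoids, are described as a pair. Mt1 was at 48.0 to 59.1 CPM in WT and 44.0 to 60.3 CPM in Lepob/+, and Mt2 at 22.9 to 33.7 and 23.0 to 51.6 CPM. Both overlapped between these groups, with unadjusted p-values from edgeR of 0.741 and 0.285. In Lepob/+ 4, Mt1 was 1.07 times the mean of the other 3 Lepob/+ libraries, near the 1.005 of Ddit4, and Mt2 was 1.82 times it, near the 1.87 of Zbtb16 and the 1.98 of Fkbp5. Lepob/+ 4 was the highest Lepob/+ library for Mt2, above all WT libraries, while for Mt1 it lay within the WT range.

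**Figure D4:**
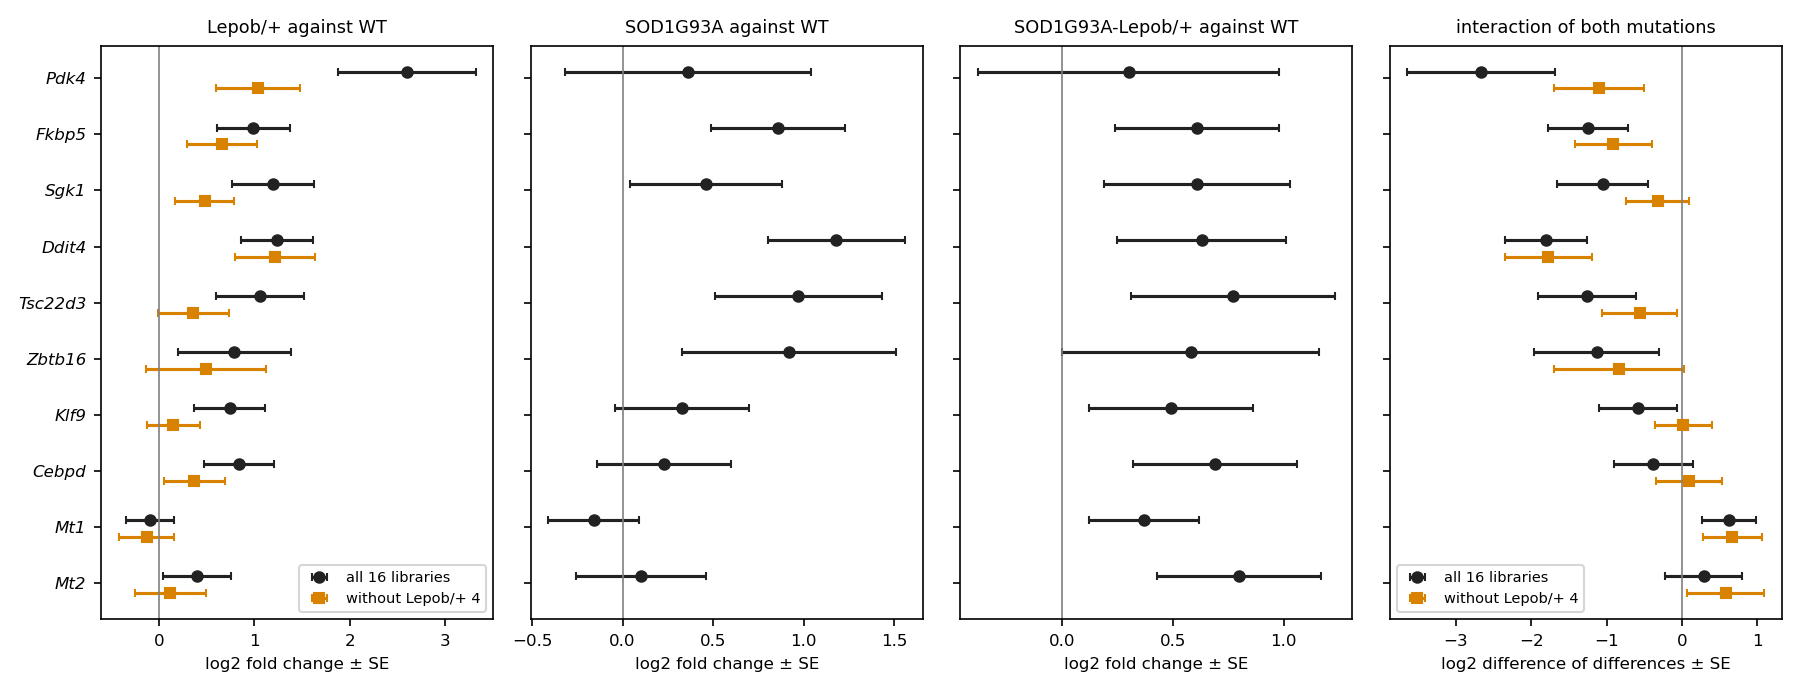
Log2 fold change of each member with its standard error (SE) from edgeR, in Lepob/+, SOD1G93A and SOD1G93A-Lepob/+ against WT, and the interaction of both mutations. Circles use all 16 libraries and orange squares leave out Lepob/+ 4. In Lepob/+ against WT, Pdk4 moves from 2.60 to 1.04 without that library, while Ddit4 moves from 1.24 to 1.22.

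The next question was the effect of the transgene alone. Against the same 4 WT libraries, 9 of 10 members were higher in SOD1G93A (53.0% of all genes), with a median log2 fold change of 0.41 against 0.02 over all genes. By edgeR 0 of 10 members had an adjusted p under 0.05, as did 0 of all genes (0.0%), and at an unadjusted p under 0.05 Ddit4 and Fkbp5 were higher, 2 of 10 members against 1.64% of all genes higher. DESeq2 on these libraries called Ddit4 alone, 1 of 10 members against 0.0474% of all genes, with 0 members called by DESeq2 on all libraries (0.00976% of genes) or by voom (0.0%). At the unadjusted threshold, the count was 1 without WT 3, WT 4, SOD1G93A 2 or SOD1G93A 3 (316, 352, 217 and 1541 of all genes). It was 3 without SOD1G93A 1, with 415 of all genes in either direction. The groups did not overlap for 3 members, Sgk1, Ddit4 and Tsc22d3, against 1.37% of all genes wholly higher.

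Ddit4 was at 64.9, 72.5, 61.7 and 90.5 CPM in SOD1G93A 1 to 4, all above the highest WT library at 40.7 CPM. The log2 fold change was 1.18 ± 0.38 (SE, edgeR, unadjusted p = 0.00785, adjusted p = 0.998), and with DESeq2 on these libraries the adjusted p was 0.0347. The range over 20 alternatives was 0.98 to 1.31. SOD1G93A 3, the library of this group with the least lymph node transcripts, was at 61.7 CPM, and with the lymph node list as a covariate the log2 fold change was 1.13 (unadjusted p = 0.0134).

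Tsc22d3 was at 92.5, 183, 191 and 165 CPM in SOD1G93A, with SOD1G93A 1 just above the highest WT library and the other 3 near each other at a higher level. Its log2 fold change was 0.97 ± 0.46 (SE, edgeR, unadjusted p = 0.0537, adjusted p = 0.998). Sgk1 was at 71.7, 65.3, 74.0 and 92.1 CPM, all slightly above WT, with a log2 fold change of 0.46 ± 0.42 (SE, edgeR, unadjusted p = 0.295, adjusted p = 0.998). Fkbp5 was at 29.8, 57.8, 67.8 and 40.3 CPM, of which SOD1G93A 1 lay within the WT range, and its log2 fold change was 0.86 ± 0.37 (SE, edgeR, unadjusted p = 0.0372, adjusted p = 0.998).

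The remaining members gave no such separation. Pdk4 was at 132, 43.3, 54.5 and 71.7 CPM in SOD1G93A, with SOD1G93A 1 above WT and the others within its range. Zbtb16 was at 39.4, 39.2, 177 and 32.1 CPM and Klf9 at 54.1, 54.4, 130.1 and 70.5 CPM, both with SOD1G93A 3 standing apart at the top. Cebpd at 24.4 to 31.4 CPM, Mt1 at 35.2 to 64.0 CPM and Mt2 at 16.3 to 35.8 CPM overlapped WT. Over 20 alternatives the log2 fold change ranged from -0.06 to 1.15 for Zbtb16, from -0.07 to 0.45 for Klf9 and from -0.06 to 0.54 for Pdk4, so its sign was not the same in all of them.

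With both mutations, all 10 members had a log2 fold change above 0 against WT, where 51.0% of all genes did, and the median was 0.61 against 0.01 over all genes. None had an adjusted p under 0.05 by edgeR (0 of 10 members and 0.0% of all genes), by DESeq2 on these libraries (1.22% of genes called) or on all (0.143%), or by voom (0.0101%). At an unadjusted p under 0.05 in edgeR, 1 of 10 members was higher, Mt2, against 1.22% of all genes higher. The groups did not overlap for 1 member, Klf9, against 1.98% of all genes wholly higher. Much of the difference lay in SOD1G93A-Lepob/+ 4. Without it the median log2 fold change was 0.26 and 0 members had an unadjusted p under 0.05 (558 of all genes did). The count was also 0 without WT 1, WT 3 or SOD1G93A-Lepob/+ 2, with 436, 1456 and 753 of all genes under that threshold. It was 3 without SOD1G93A-Lepob/+ 1 and 2 without the library labelled SOD1G93A-Lepob/+ 3 (554 and 643 of all genes).

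Mt2 was at 23.5, 33.7, 23.0 and 22.9 CPM in WT and at 26.7, 50.4, 24.9 and 77.0 CPM in SOD1G93A-Lepob/+. Libraries 2 and 4 of the double mutants were above WT and libraries 1 and 3 within its range. The log2 fold change was 0.80 ± 0.37 (SE, edgeR, unadjusted p = 0.0465, adjusted p = 0.951), 0.40 without SOD1G93A-Lepob/+ 4 (unadjusted p = 0.253) and 1.00 without the library labelled SOD1G93A-Lepob/+ 3 (unadjusted p = 0.0166). Mt2 shares 432 exon bases with the antisense gene Gm45774. Mt1 had the same order of the 4 double mutants, at 55.5, 81.8, 38.1 and 102 CPM in libraries 1 to 4, with library 3 below the WT range of 48.0 to 59.1 CPM. Without the library labelled SOD1G93A-Lepob/+ 3 its log2 fold change was 0.57 (edgeR, unadjusted p = 0.0204), and 0.37 with it (unadjusted p = 0.166).

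Over the 16 libraries Mt1 and Mt2 had a Spearman rho of 0.69 (0.72 without Lepob/+ 4), a description over libraries that share their scaling. With the summed mammary epithelium list their rhos were 0.34 for Mt1 and 0.29 for Mt2 (n = 16). Some other lists lay further from 0, such as other fasting response genes (0.59 and 0.42) and B cell genes (-0.59 and -0.57). The mammary epithelium list was at 863.9, 832.5, 360.5 and 1263 CPM in SOD1G93A-Lepob/+ 1 to 4, lowest in library 3 and highest in library 4, as were both genes. SOD1G93A 2 was the lowest library for both and SOD1G93A-Lepob/+ 4 the highest for both.

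**Figure D5:**
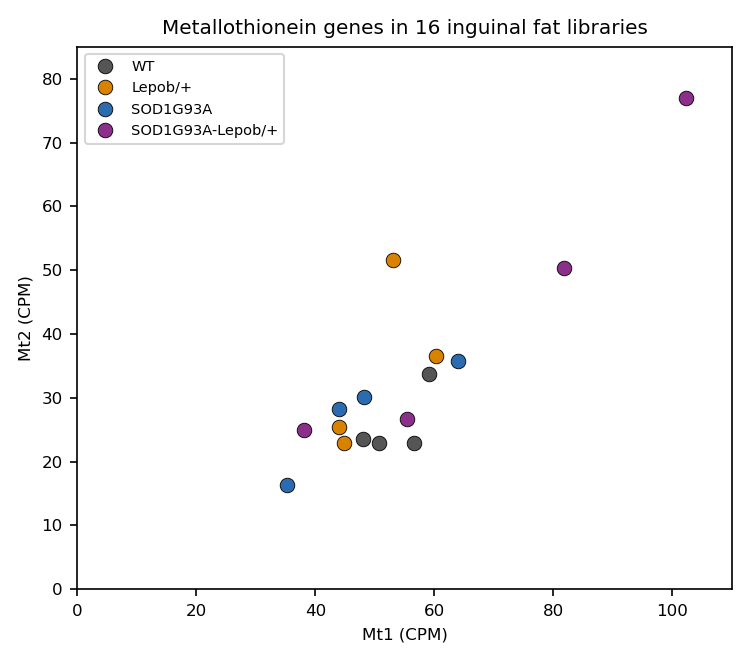
Mt2 against Mt1, both in CPM, 1 point per library and colored by genotype. SOD1G93A-Lepob/+ 4 (102 and 77.0 CPM) and SOD1G93A-Lepob/+ 2 (81.8 and 50.4 CPM) lie at the upper right, and SOD1G93A 2 (35.2 and 16.3 CPM) at the lower left.

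Klf9 was at 73.1, 83.1, 77.2 and 113 CPM in SOD1G93A-Lepob/+ 1 to 4, where the highest WT library was at 70.8 CPM. Its log2 fold change was 0.49 ± 0.37 (SE, edgeR, unadjusted p = 0.204, adjusted p = 0.951). All 4 double mutants were poor in lymph node transcripts. With that list as a covariate the value was 0.19 for Klf9 (edgeR, unadjusted p = 0.618) and 0.64 for Mt2 (unadjusted p = 0.144). The median was then 0.41, and 0 members had an unadjusted p under 0.05, with 678 of all genes. Ddit4, in contrast to its even levels in both single mutants, was spread in the double mutants, at 17.3, 30.4, 60.7 and 88.8 CPM. SOD1G93A-Lepob/+ 1 was the lowest of all 16 libraries for Ddit4, and SOD1G93A-Lepob/+ 4 was close to the highest. The SD of Ddit4 within a genotype was 32.0 CPM here, 9.61 in WT, 12.9 in SOD1G93A and 3.64 in Lepob/+ (n = 4 each).

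The other members overlapped WT. SOD1G93A-Lepob/+ 4 was above the highest WT library for all of them, with 76.7 CPM of Fkbp5, 149.8 of Sgk1, 233 of Tsc22d3, 86.7 of Zbtb16, 51.1 of Cebpd and 83.9 of Pdk4. The other 3 double mutants were at 27.1 to 30.4 CPM for Fkbp5 and 52.9 to 68.0 for Sgk1, close to WT. For Tsc22d3 they were at 77.7, 89.1 and 149, and for Pdk4 at 66.4, 79.9 and 58.8. This library had 60.4 CPM over the 14 muscle genes and 19.2 CPM over the 10 lymph node genes. It had the most mammary epithelium transcript of all libraries, 1263 CPM over 10 genes, where the others had 313 to 907.7 CPM, and the part of that tissue in the members' levels was not tested. For Ddit4, Tsc22d3, Cebpd and Zbtb16, the library labelled SOD1G93A-Lepob/+ 3 was the next highest double mutant.

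The study also asked what losing a copy of Lep does in mice that carry the transgene. Between SOD1G93A-Lepob/+ and SOD1G93A, 5 members were higher (50.1% of all genes) and 5 lower, and the median log2 fold change was 0.04 against 0.00 over all genes. In edgeR 0 members had an adjusted p under 0.05 (0.0% of all genes) and 0 an unadjusted p under 0.05 (16.5% of all genes), and 0 separated the groups (7.18% of all genes). Ddit4 was called by voom with quality weights alone (adjusted p = 0.0284), a fit that called 31.7% of all genes in this comparison. DESeq2 called 0 members, on these libraries (6.06% of genes) and on all (1.84%). In edgeR its log2 fold change was -0.56 (unadjusted p = 0.164), and -1.0 without SOD1G93A-Lepob/+ 4 (unadjusted p = 0.0127). Fkbp5 was then at -0.75 (unadjusted p = 0.0369), and the median over members was -0.21. With the lymph node list as a covariate, 2 members were higher and 8 lower, with a median of -0.19, where 3 of 4 SOD1G93A libraries and 0 of 4 double mutants were rich in lymph node transcripts. Without the library labelled SOD1G93A-Lepob/+ 3, the log2 fold changes of Mt1 and Mt2 were 0.74 and 0.89 (edgeR, unadjusted p = 0.00474 and 0.0285), and 0.54 and 0.69 with it (unadjusted p = 0.0537 and 0.0778).

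Between SOD1G93A-Lepob/+ and Lepob/+, 2 members were higher (42.1% of all genes), the median was -0.27 against -0.06 over all genes, and without Lepob/+ 4 it was 0.21 with 7 members higher (48.6%), so its direction rested on that library. Of 10 members, 0 had an adjusted p under 0.05 in edgeR (0.0% of all genes), in DESeq2 on these libraries (0.111%) or all (0.221%) or in voom (0.0101%), and 1, Pdk4, was lower at an unadjusted p under 0.05 in edgeR, against 6.28% of all genes lower. Its log2 fold change was -2.30 ± 0.71 (SE, unadjusted p = 0.00604, adjusted p = 0.597), and -0.76 without Lepob/+ 4 (unadjusted p = 0.104), when 0 members had an unadjusted p under 0.05 (6.15% of all genes). Without SOD1G93A-Lepob/+ 4 the count was 4, all lower (Pdk4, Fkbp5, Sgk1 and Ddit4), with 1121 of all genes under that threshold in either direction. It was 2 without the library labelled SOD1G93A-Lepob/+ 3, Mt1 higher and Pdk4 lower, with 1234 of all genes. No member separated the groups (2.35% of all genes). The 4 double mutants lay at 58.8 to 83.9 CPM for Pdk4. Lepob/+ 2 (70.1 CPM) lay within that narrow range, and Lepob/+ 1 (89.6 CPM) just above it.

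The interaction compares the effect of the ob allele with the transgene to that without it. Its median over members was -1.09 on the log2 scale, against -0.09 over all genes, and -0.44 without Lepob/+ 4. It was above 0 for 2 members (42.5% of all genes), and for 4 without that library (49.8%). No member passed (0 of 10 in edgeR, with 0.0% of all genes, 0 in DESeq2 with 0.166%, and 0 in voom with 0.0%). At an unadjusted p under 0.05 in edgeR, 3 were below 0 (Ddit4, Pdk4 and Fkbp5), against 5.82% of all genes, and 1 (Ddit4) without Lepob/+ 4, against 7.97% in either direction. Without SOD1G93A-Lepob/+ 4 the count was 5, with 1191 of all genes under that threshold in either direction. Sgk1 at -1.48 (edgeR, unadjusted p = 0.0194) and Tsc22d3 at -1.65 (unadjusted p = 0.0229) were added. For Ddit4 the value was -1.80 ± 0.54 (SE, edgeR, unadjusted p = 0.00479, adjusted p = 0.564) with all libraries and -1.77 without Lepob/+ 4 (unadjusted p = 0.00875). For Pdk4 it was -2.66 ± 0.98 (SE, edgeR, unadjusted p = 0.0165, adjusted p = 0.564) and -1.10 without that library (unadjusted p = 0.0872). For Fkbp5 it was -1.24 ± 0.53 (SE, edgeR, unadjusted p = 0.0335, adjusted p = 0.564) and -0.91 without it (unadjusted p = 0.0963). All of these comparisons share libraries, so that low WT levels enter each comparison with WT and the interaction.

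By group mean, Ddit4 was ordered Lepob/+ (75.4 CPM), SOD1G93A (72.4), SOD1G93A-Lepob/+ (49.3) and WT (31.9), where the first pair differed by less than their SDs and the double mutants overlapped all others. Fkbp5 followed the same order at 53.5, 48.9, 41.0 and 26.9 CPM, and so did Tsc22d3 at 168, 158, 137 and 80.5 CPM, with neighbours in that order among the 3 mutant genotypes within their SDs in each case. Sgk1 and Cebpd had the double mutants second (84.0 and 36.5 CPM) and SOD1G93A next (75.8 and 26.5 CPM). Klf9 was ordered in the same way, with SOD1G93A-Lepob/+ at 86.7 CPM and SOD1G93A at 77.3 CPM between Lepob/+ and WT. Zbtb16 was highest in SOD1G93A (72.0 ± 70.3 CPM) and Pdk4 in Lepob/+ (355 ± 469 CPM; SD, n = 4). The first place of Lepob/+ rested on Lepob/+ 4 for 5 members, but not for Pdk4, whose other 3 libraries had a mean of 122 CPM. The mean of the other 3 Lepob/+ libraries was 42.9 CPM for Fkbp5, 104 for Tsc22d3 and 69.3 for Klf9, each below SOD1G93A, and 77.8 for Sgk1 and 29.6 for Cebpd, each below the double mutants. For Mt1 and Mt2 the double mutants came first, at 69.4 ± 28.3 and 44.8 ± 24.5 CPM (SD, n = 4), and the other means lay at 47.8 to 53.6 and at 25.7 to 34.1 CPM.

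The wider pathway was read from lists of other genes. The glucocorticoid receptor Nr3c1 itself was at 69.0 to 157.6 CPM over all 16 libraries. Of 10 genes of the receptor, its chaperones and hormone activation, 0 had an adjusted p under 0.05 in edgeR in any of the 6 comparisons, as in all genes (0.0%). Hsd11b1, which regenerates active glucocorticoid inside fat cells, was at 39.8, 42.8, 106.8 and 56.1 CPM in SOD1G93A 1 to 4 and at 23.9, 18.3, 22.0 and 31.4 CPM in SOD1G93A-Lepob/+ 1 to 4. These groups did not overlap, as in 7.18% of all genes, and its log2 fold change between them was -1.36 ± 0.46 (SE, edgeR, unadjusted p = 0.0107, adjusted p = 0.261). Hsd11b1 was 1 of 10 listed genes with an unadjusted p under 0.05 there, the only one, against 16.5% of all genes.

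Of 14 other glucocorticoid targets, 12 were higher in Lepob/+ than in WT (55.6% of all genes were), 1 of them (Arrdc2) at an unadjusted p under 0.05, and the median log2 fold change was 0.21. Without Lepob/+ 4 the median was 0.02, and Arrdc2, at 201.5 CPM in that library and 19.96 to 23.0 CPM in WT, had a log2 fold change of 0.01. In SOD1G93A-Lepob/+ against WT 13 of the 14 were higher (51.0% of all genes) with a median of 0.26, and Errfi1, a feedback inhibitor of the EGF receptor, had the smallest p (log2 fold change 1.25 ± 0.43, edgeR, unadjusted p = 0.0116, adjusted p = 0.951). Errfi1 was at 67.2, 74.2, 96.3 and 229 CPM in SOD1G93A-Lepob/+ and at 43.3 to 51.9 CPM in WT, and SOD1G93A-Lepob/+ 4 was its highest library too. In SOD1G93A against WT, 6 were higher (53.0% of all genes) and 8 lower, with 0 at an unadjusted p under 0.05 (505 of all genes).

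Of 14 other fasting response genes, 12 were likewise higher in Lepob/+ than in WT (55.6% of all genes), with a median of 0.28, and 13 with a median of 0.17 without Lepob/+ 4. Ucp3, a mitochondrial carrier of muscle and fat, had the smallest p with that library (1.09 ± 0.49, unadjusted p = 0.0424) and was at 0.16 without it. Angptl4, a secreted inhibitor of lipoprotein lipase that fasting induces in fat, was at 490.1, 481, 515.9 and 400.2 CPM in SOD1G93A-Lepob/+. It was at 273 to 347.5 CPM in WT and at 187 to 297 CPM in SOD1G93A, so the double mutants lay above both groups. Its log2 fold change was 0.88 ± 0.24 against SOD1G93A (SE, edgeR, unadjusted p = 0.00253, adjusted p = 0.261) and 0.60 ± 0.24 against WT (unadjusted p = 0.0247, adjusted p = 0.951). Angptl4 was the only 1 of the 14 with an unadjusted p under 0.05 against SOD1G93A, where 16.5% of all genes had one. In that group of genes 0 had an adjusted p under 0.05 in edgeR (0.0% of all genes).

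Of 14 paralogs of the members listed, 12 were tested, and in Lepob/+ against WT 3 had an unadjusted p under 0.05 and were higher, against 3.56% of all genes. Without Lepob/+ 4, 1 was higher and 1 lower at that threshold, against 1.7% of all genes in either direction. Tsc22d1, a relative of Tsc22d3, was at 61.7 to 127 CPM in WT and 128 to 189 CPM in Lepob/+, with a log2 fold change of 0.69 ± 0.24 (edgeR, unadjusted p = 0.013, adjusted p = 1.0) and 0.67 without Lepob/+ 4. Ddit4l, the relative of Ddit4, was at 224.5 CPM in Lepob/+ 4 and at 0.316 to 1.71 in the other Lepob/+ libraries, and its log2 fold change turned from 3.97 to -1.91 without Lepob/+ 4. Pdk2 was at 648 CPM in Lepob/+ 4 and 123 to 144 in the others (1.10 with that library and 0.13 without it). Against SOD1G93A, Pdk1 was lower in the double mutants, at 36.0 to 77.1 CPM and 80.3 to 139 CPM (log2 fold change -1.03 ± 0.32, edgeR, unadjusted p = 0.00552, adjusted p = 0.261). In that comparison 2 of the 12 were lower and 0 higher at an unadjusted p under 0.05, against 16.5% of all genes in either direction. All double mutants were poor in lymph node transcripts, as was SOD1G93A 3, the lowest of its group for Pdk1 (80.3 CPM). Pdk1 was at 137 CPM in Lepob/+ 3, rich in them, and at 54.9 to 85.8 in the other Lepob/+ libraries. In WT it was at 124 and 82.2 CPM in libraries 1 and 2, which were rich, and at 88.0 and 60.9 in 3 and 4. The part of lymph node in Pdk1 was not tested.

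Of 5 metal response genes, among them Mtf1 and the zinc exporter Slc30a1, 4 were tested, and 0 had an unadjusted p under 0.05 in any comparison with all 16 libraries. Slc30a1, a target of the same metal response element as Mt1 and Mt2, was at 29.6 to 41.4 CPM in all 16 libraries, a narrower relative range than that of Mt2. Of 14 clock genes 0 had an unadjusted p under 0.05 against WT in Lepob/+, SOD1G93A or SOD1G93A-Lepob/+. Among 10 immediate early genes, which respond within minutes to handling and other stimuli, Egr1 had lower mean levels than WT in each mutant group, with log2 fold changes of -0.90 ± 0.29 for Lepob/+, -0.68 ± 0.29 for SOD1G93A and -0.83 ± 0.29 for SOD1G93A-Lepob/+ (edgeR, unadjusted p = 0.00694, 0.0308 and 0.0116, adjusted p = 1.0, 0.998 and 0.951). WT 1 and 2, at 63.4 and 59.3 CPM, lay within the ranges of SOD1G93A and SOD1G93A-Lepob/+. In each of these comparisons 2 of the 10 were lower at an unadjusted p under 0.05 (862, 505 and 935 of all genes in either direction). Only Nr4a1 was higher at that threshold, in Lepob/+ (2.04, edgeR, unadjusted p = 0.0323, and -0.36 without Lepob/+ 4). WT 4, the lowest library for Pdk4 and Sgk1, was the highest for Egr1 (145 CPM) and for Fos (109 CPM). The part of tissue handling in the members' levels was not tested.

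The members followed each other across libraries to different degrees. Of 45 pairs, 42 had a positive Spearman rho over the 16 libraries, with a median of 0.39, and 40 were positive with a median of 0.27 without Lepob/+ 4. The closest pair was Sgk1 and Ddit4, at 0.75 (0.76 without Lepob/+ 4). Fkbp5 with Ddit4 was at 0.69 in both cases, and Tsc22d3 with Ddit4 at 0.64 and 0.65. The lowest rho was that of Mt1 with Ddit4, at -0.27, and apart from Mt2 its highest rho was 0.33, with Klf9. Since these rhos are over libraries of 4 genotypes that also share their scaling, they describe these samples.

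The genes with the most similar profile were not the same for any pair of members. Tsc22d3 was closest to the clock gene and glucocorticoid target Per1 (rho 0.89, and 0.87 without Lepob/+ 4) and to Selenot (0.87 and 0.85). Klf9 was closest to Lnx1 (0.94 and 0.95) and Tbccd1 (0.91 and 0.94), Cebpd to Calm2 (0.93 and 0.92) and Capza2 (0.90 and 0.88), and Zbtb16 to Zfp931 (0.91 and 0.89) and Ccdc186 (0.82 and 0.78). Fkbp5 was closest to Nampt (0.83 and 0.79) and Zfp148 (0.82 and 0.83), and Sgk1 to Alg10b (0.85 and 0.81) and Hdac2 (0.82 and 0.78). Pdk4 was closest to Alpl and Map3k7 (0.82 and 0.79 for both), and Ddit4 to Mapre2 (0.80 and 0.80) and Gt(ROSA)26Sor (0.79 and 0.78). Mt1 was closest to Atp6v1g1 and Atp6v1e1, subunits of the lysosomal proton pump (0.80 for both, and 0.86 and 0.81 without Lepob/+ 4), and Mt2 to Scarb2 (0.79 and 0.74) and Cutc (0.77 and 0.74). These are the best of all genes with a mean of at least 5 CPM over 16 libraries, or 15 without Lepob/+ 4.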

How the data were processed

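Inguinal white adipose tissue of 16 mice, 4 per genotype by the labels, was analysed from the gene counts that the authors deposited. The authors made these raw counts with fastp, HISAT2 2.1.0 on mm10 and featureCounts 2.0.2 from uniquely mapped reads, and the annotation release and the strand setting are not given in the sources used here. The labels and the study's methods name different library kits. Reads shared by Mt1 and Mt2 would be lost to unique mapping, and depth was 36.8 to 61.9 M counts per library.

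Counts were filtered with filterByExpr (at least 10 counts, total of 15), leaving 19736 genes, scaled by TMM and tested in 1 fit of all 16 libraries with the robust quasi-likelihood F test of edgeR 4.0.16 (R 4.3.3), two-sided, with Benjamini-Hochberg adjustment over all genes and a threshold of 0.05. SE is the log2 fold change divided by the root of F. Levels are CPM after TMM scaling, and log2 CPM used a prior count of 1. The script was tested on simulated data. Alternatives were DESeq2 1.42.0, limma 3.58.1 voom with quality weights, other size factors and filters, a replicate block, covariates and left-out libraries. P-values measure the spread between these samples. Human SOD1 reads and the point mutation ob leave the mouse Sod1 and Lep counts no check of genotype.

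The members and lists were chosen with earlier results of these data known. All 10 members were named, with statistics where the unadjusted p was under 0.05 or groups did not overlap, as were up to 3 genes of each pathway list with the smallest p and the 2 most similar genes of each member. Nr3c1, Slc30a1 and Fos were named after their values were seen. Promoter sequences are from RefSeq (GRCm38.p6), and coding sequences are from GENCODE transcripts (GRCm38).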

Additional observations from a re-analysis of the deposited data

Results flagged for a closer look

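In 9 of 40 groups of 4 libraries (10 genes in 4 genotypes), the highest or lowest library stood further from the others than Dixon's limit allows. Chance passes that limit in about 1 in 20 groups of independent, normally distributed values. CPM without logs of genes that share libraries is not of that kind, and the rate over all genes is not given. So 9 of 40 cannot be read as an excess. In Lepob/+ 4 the outlying values were Pdk4 at 1052 CPM, Sgk1 at 271.8 CPM and Klf9 at 204.7 CPM. That library had 236800 CPM of skeletal muscle transcripts, whose part in these levels was not tested beyond the fits with a muscle covariate. In SOD1G93A-Lepob/+ 4 they were Fkbp5 at 76.71 CPM and Sgk1 at 149.8 CPM, with 60.4 CPM of muscle transcripts and the most mammary epithelium transcript of all libraries (1263 CPM). In SOD1G93A 3 they were Zbtb16 at 177.4 CPM and Cebpd at 31.39 CPM. In WT 2 Tsc22d3 stood low at 60.86 CPM and Mt2 high at 33.66 CPM.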

How the results depend on the processing

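For 16 results on single members, 338 values under alternatives were computed, of which 336 kept direction and side of the adjusted threshold of 0.05. Of the rest, 2 (Ddit4 with DESeq2 on the compared genotypes) passed it, and 0 reversed. Since no member passed it in the main fit, keeping that side says little about size or unadjusted p. In Lepob/+ against WT without Lepob/+ 4, the unadjusted p from edgeR was 0.0981 for Fkbp5, 0.147 for Sgk1, 0.345 for Tsc22d3 and 0.261 for Cebpd. It stayed under 0.05 for Pdk4 (0.0319) and Ddit4 (0.0123). The count of members with an adjusted p under 0.05 was 0 in edgeR in each comparison and without each library. DESeq2 on the compared genotypes called 1 in Lepob/+ against WT and 1 in SOD1G93A against WT (Ddit4, adjusted p = 0.0255 and 0.0347), and voom called 1 in SOD1G93A-Lepob/+ against SOD1G93A (Ddit4, 0.0284). The median log2 fold change over members in Lepob/+ against WT was 0.43 without Lepob/+ 4 and SOD1G93A-Lepob/+ 3, and 0.39 without Lepob/+ 4 and WT 3, a pair chosen after seeing the data. For SOD1G93A-Lepob/+ against Lepob/+ these were 0.25 and 0.21, and for the interaction -0.41 and -0.51, with -0.50 in voom. Leaving out 1 library gave medians of 0.43 to 1.08 (Lepob/+ against WT), 0.28 to 0.53 (SOD1G93A against WT), 0.26 to 0.75, -0.21 to 0.35 and -0.58 to 0.21 (SOD1G93A-Lepob/+ against WT, SOD1G93A and Lepob/+) and -1.44 to -0.44 (interaction). Except for the left-out libraries, the cause was not tested.

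With the replicate number as a block the medians were 0.79, 0.35, 0.48, 0.00, -0.22 and -0.97 in the same order, and 0 members were called. Libraries that share a number form 24 pairs, of which 5 correlated above 0.1 and 8 below -0.1 (-0.69 to 0.52). These values cannot decide whether a number stands for anything shared, since lymph node and muscle transcripts also differed between libraries. The main fit used no block.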
